A study of Gallus gallus with 10 samples.

Results

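The epoxide hydrolases EPHX1, EPHX2, EPHX3 and EPHX4 were followed in the abdominal fat of 10 male Arbor Acres broilers, through all probe sets of the array that its annotation pairs with 1 of these symbols and no other. Of the 38439 probe sets tested, 8 met this rule, with 1 for EPHX1, 3 for EPHX2, 4 for EPHX3 and 0 for EPHX4, so 3 of the 4 genes were measured and EPHX4 was not analysed under its own symbol. The family was chosen because EPHX2 had been seen to be higher and EPHX3 lower in the fat line on these same arrays. The differences of EPHX2 and EPHX3 between the lines are therefore given as a description, without a test.

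The birds were males killed at 7 weeks (49 days) of age, 5 of a fat line and 5 of a lean line, on the same feed in similar housing. Both lines were bred from a common Arbor Acres stock by selection in opposite directions on the percentage of abdominal fat and plasma VLDL, and the birds were picked for the highest or lowest abdominal fat percentage. Each direction of selection is represented by 1 line, so selection and chance divergence of the lines cannot be told apart. One Affymetrix Chicken Genome Array was hybridized per bird, and its MAS5 signals (linear scale) had been brought by the authors to a common trimmed mean. Birds are called by line and replicate number, and the probe sets of a gene are numbered from 1 by falling mean log2 signal.

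Epoxide hydrolases add water to an epoxide ring and turn it into a diol. In mammals EPHX1 is the microsomal enzyme, bound to the endoplasmic reticulum and known for the detoxification of reactive epoxides made by cytochromes P450. EPHX2 is the soluble enzyme, which hydrolyses the epoxides of arachidonic acid and other fatty acids and also carries a lipid phosphatase domain. EPHX3 and EPHX4 are related members of the same alpha/beta hydrolase fold, of which mammalian EPHX3 also acts on fatty acid epoxides and EPHX4 is the least studied. In mice EPHX2 is present in fat tissue.

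The name EPHX3 needs care in these data. The 4 probe sets carry Entrez gene 424505, which the RefSeq gene table (GRCg7b assembly) places on chromosome 8, with BTBD8 on one side and BRDT, after 1 uncharacterized gene, on the other. In the paper the transcript of probe set 4 is listed as lower in the fat line and named as similar to abhydrolase domain containing 7. ABHD7 is an older symbol of mammalian EPHX4. Human EPHX4 also lies between BTBD8 and BRDT. The annotation symbol EPHX3 is kept below, but the gene order and the older name are those of mammalian EPHX4, and only the symbol points to EPHX3. No sequences were compared, so the assignment was not tested. What is known of mammalian EPHX3 may therefore not apply to this gene. EPHX1 (Entrez gene 421321) and EPHX2 (421999) lie on chromosome 3 in the same table. EPHX1L (Entrez gene 421447) has a symbol of its own and is not a member.

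The 2 lines were tested against each other with limma on the log2 signals of all 38439 probe sets (two-sided, Benjamini-Hochberg adjusted p, threshold 0.05). This test called 0 probe sets (0% of those tested), while 2835 (7.38%) had an unadjusted p under 0.05 of which 1301 (3.38%) were higher and 1534 (3.99%) lower in the fat line, and SAM at a delta of 0.8 called 0. A log2 difference above 0 was found for 44.3% of the probe sets. The median log2 difference (fat minus lean) over all probe sets was -0.05. The arrays had median signals of 185.8 to 276.2, the highest in fat line 4, and r between 2 arrays was 0.807 to 0.921. By the array logs they were scanned on 3 days. Their logged hybridization times fell into 4 groups, called wash runs here. Fat line 1, 2 and 3 and lean line 5 were in run 3, and lean line 3 and fat line 4 in run 4. Lean line 4 and fat line 5 were in run 1, and lean line 1 and 2 in run 2. A stop during washing was logged for lean line 4. Adipocyte markers were bright in every bird, with FABP4, a lipid carrier of adipocytes, at 44732.1 to 57201.3.

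EPHX2, the soluble epoxide hydrolase, had a higher mean signal in the fat line with each of its 3 probe sets. With probe set 1 the signal was 2182.4, 1100.8, 1974.9, 1150.7 and 798.1 in fat line 1 to 5, and 721.8, 813.3, 600.6, 555.0 and 771.7 in lean line 1 to 5. Fat line 1 and 3 stood highest, 4 of the 5 fat line birds lay above every lean line bird, and fat line 5 lay inside the lean range. The means were 1441.4 ± 601.7 and 692.5 ± 110.8 (SD, n = 5 each), a log2 difference of 0.97 (SE 0.25), which is a 1.96-fold higher geometric mean.

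With probe set 2 of EPHX2, fat line 1 to 5 had signals of 1904.3, 976.4, 2155.1, 1358.6 and 1120.4, and lean line 1 to 5 had 522.6, 903.5, 361.9, 532.7 and 684.2. Here the lines did not overlap, although fat line 2 was close to lean line 2. Of all probe sets, 271 (0.705%) were higher in the fat line with no overlap, and this is the 1 member probe set among them. The log2 difference was 1.32 (SE 0.26). Since the family was chosen on this contrast, nothing is read from that count.

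For probe set 3 of EPHX2 the signals were 1467.8, 880.4, 1690.9, 1200.1 and 1182.8 in fat line 1 to 5, against 708.0, 964.0, 182.4, 534.0 and 474.8 in lean line 1 to 5. Lean line 2 lay above fat line 2, and lean line 3 was the lowest bird by far. The log2 difference was 1.32 (SE 0.35), and 0.96 without lean line 3. The 3 EPHX2 probe sets gave a like order of the birds, read from the same RNA and arrays. Between pairs, r of log2 signals was 0.75 to 0.91 over the 10 birds, the difference between the lines included. The r of the deviations from the line means was 0.44 to 0.80. All 3 probe sets placed fat line 1 and 3 on top and lean line 2 highest in the lean line.

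**Figure D1:**
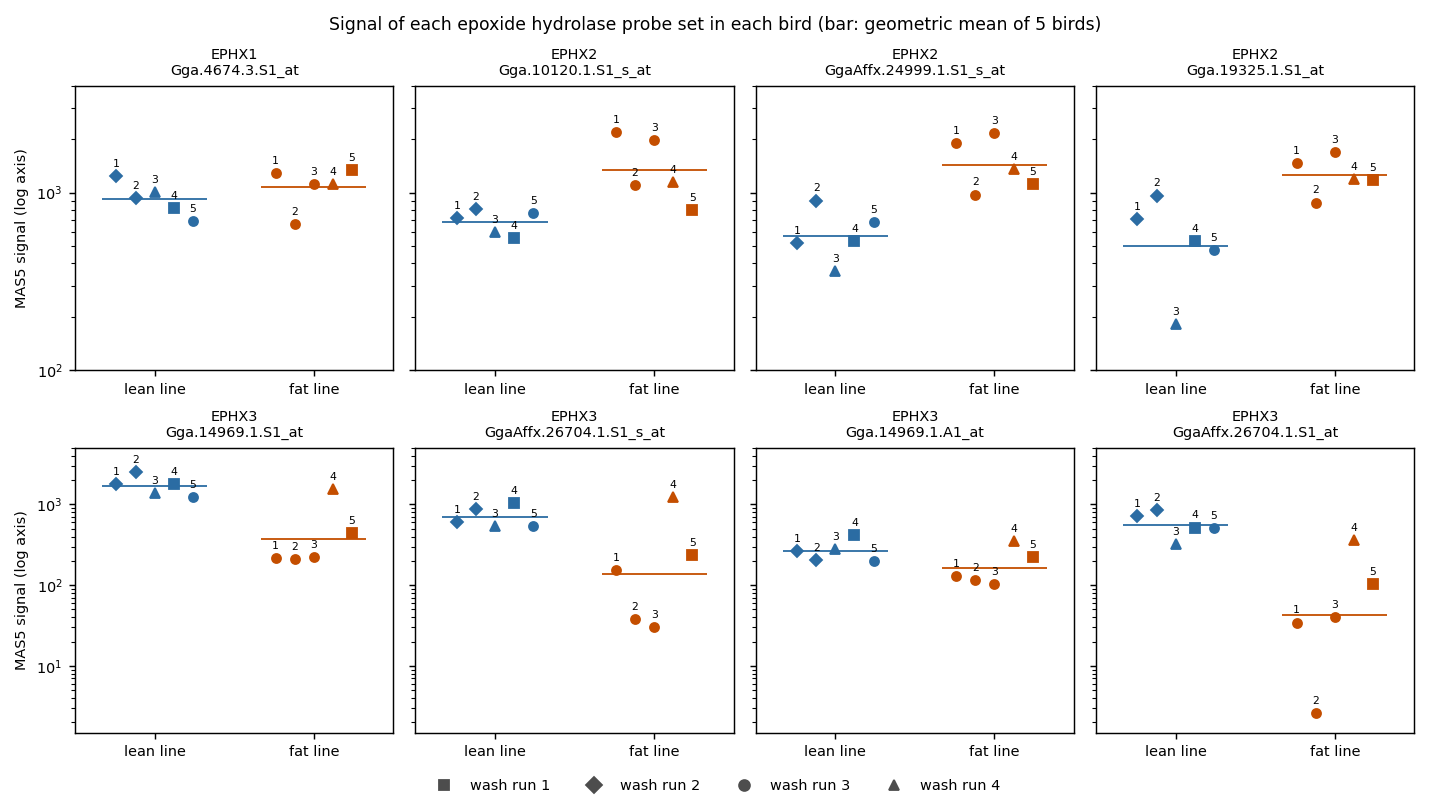
MAS5 signal (log axis, with its own range for each row of panels) of each of the 8 probe sets in each bird, lean line in blue and fat line in orange, with the replicate number above each point, the marker shape giving the wash run and the bar the geometric mean of 5 birds. The panels of a gene, headed by the array's probe set name, run from left to right in the order of the numbers used here. EPHX1 overlaps between the lines, the fat line is higher in EPHX2, and in EPHX3 fat line 1, 2 and 3 are low while fat line 4 lies at the level of the lean line.

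EPHX3 had a lower mean signal in the fat line with each of its 4 probe sets and split the fat line. With its probe set 1 the signal was 1801.3, 2508.5, 1386.0, 1794.8 and 1227.4 in lean line 1 to 5. Fat line 1, 2 and 3 had nearly equal low signals of 218.8, 211.2 and 221.0, fat line 5 had 441.5, and fat line 4 had 1530.9, inside the lean range. The means were 524.7 ± 570.8 in the fat line against 1743.6 ± 496.3 in the lean line (SD, n = 5 each). The log2 difference was -2.19 (SE 0.44), a 4.57-fold higher geometric mean in the lean line, and -2.71 without fat line 4.

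The same split was seen with the other probe sets of the gene. Probe set 2 gave 154.3, 38.3, 30.1, 1220.0 and 234.8 in fat line 1 to 5, and 602.5, 885.5, 542.1, 1025.0 and 539.5 in lean line 1 to 5. Fat line 4 was the highest of all 10 birds here and the other 4 fat line birds were below every lean line bird, with a log2 difference of -2.32 (SE 0.75), which was -3.11 without fat line 4. Fat line 2 and 3 were dim here, and the value was -1.77 without fat line 3, -1.70 with signals under 100 set to 100 and -1.67 with the wash run as a block.

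With probe set 4 of EPHX3, fat line 1 to 5 had 34.5, 2.6, 40.3, 358.7 and 102.9, and lean line 1 to 5 had 710.1, 840.3, 324.9, 517.0 and 515.0. Fat line 4 again reached the lean range, above lean line 3. The log2 difference was -3.71 (SE 0.92), -4.48 without fat line 4 and -2.71 without fat line 2. It was -2.09 when signals under 100, which make up 26.5% to 34.6% of the probe sets of an array, were set to 100, so its size rests on signals at the dim end of the scale.

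Probe set 3 of EPHX3 had 130.8, 116.1, 103.9, 347.7 and 225.5 in fat line 1 to 5 against 264.7, 203.0, 280.2, 418.3 and 197.3 in lean line 1 to 5. Fat line 1, 2 and 3 were again the lowest birds, and fat line 4 and 5 lay inside the lean range. The log2 difference was smaller, at -0.67 (SE 0.38). Between the 4 EPHX3 probe sets r over the birds was 0.75 to 0.92, and r of the deviations from the line means was 0.63 to 0.89. The 4 probe sets of EPHX3 overlapped between the lines, and the share of all probe sets that were lower in the fat line with no overlap was 0.687%.

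**Figure D2:**
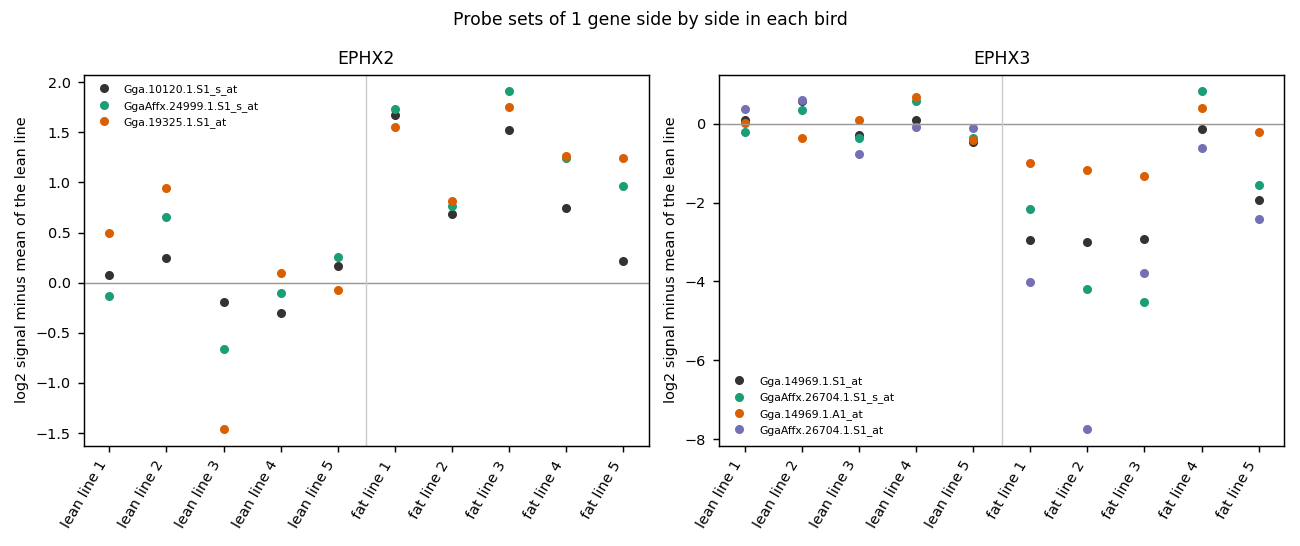
Log2 signal of each probe set minus its own mean in the lean line (vertical axis, log2 units) in the 10 birds, for the 3 probe sets of EPHX2 and the 4 of EPHX3, listed in each legend from probe set 1 down. The EPHX3 probe sets place fat line 1, 2 and 3 below and fat line 4 near the lean line, and the difference between the lines is smallest for probe set 3 (-0.67).

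EPHX1, the microsomal epoxide hydrolase, overlapped between the lines and did not pass the test. Its single probe set had signals of 1288.8, 667.1, 1112.9, 1123.0 and 1348.2 in fat line 1 to 5 and 1244.8, 938.4, 1003.3, 820.7 and 691.8 in lean line 1 to 5. Fat line 2 was the lowest of the 10 birds and fat line 5 the highest. The means were 1108.0 ± 266.9 and 939.8 ± 207.8 (SD, n = 5 each), a log2 difference of 0.22 (SE 0.21) that did not pass (limma adjusted p = 0.865, exact permutation p = 0.357, two-sided). The value was 0.47 (SE 0.24) with the wash run as a block. EPHX1 was not one of the genes for which the family was picked. Its signal varied 2.02-fold between the lowest and the highest bird, against 3.93-fold for probe set 1 of EPHX2 and 11.88-fold for that of EPHX3. The ranges of EPHX2 and EPHX3 include the line difference on which they were chosen, so nothing is read from this contrast.

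EPHX1L, the separate gene with its own symbol and no stated role in the files, had a mean signal of 717.4 ± 269.6 in the fat line against 722.1 ± 122.7 in the lean line (SD, n = 5 each). Its log2 difference was -0.09 (SE 0.26, limma adjusted p = 0.971). Signals of different probe sets depend on how each hybridizes, so the levels of the genes were not set in an order.

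EPHX2 and EPHX3 did not mirror each other bird by bird. Fat line 1 and 3 had both the highest EPHX2 and low EPHX3, whereas fat line 2 had EPHX3 as low as theirs with an EPHX2 signal of 1100.8. Fat line 4 had EPHX2 above the lean line together with EPHX3 at the lean level. Fat line 5 had EPHX2 inside the lean range with probe set 1 and EPHX3 below it. A correlation between the genes was not tested, since the birds fall into 2 lines of 5. Over the 10 birds r of the deviations from the line means lay between -0.63 and 0.34 for the 12 pairs of EPHX2 and EPHX3 probe sets, without a common sign.

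**Figure D3:**
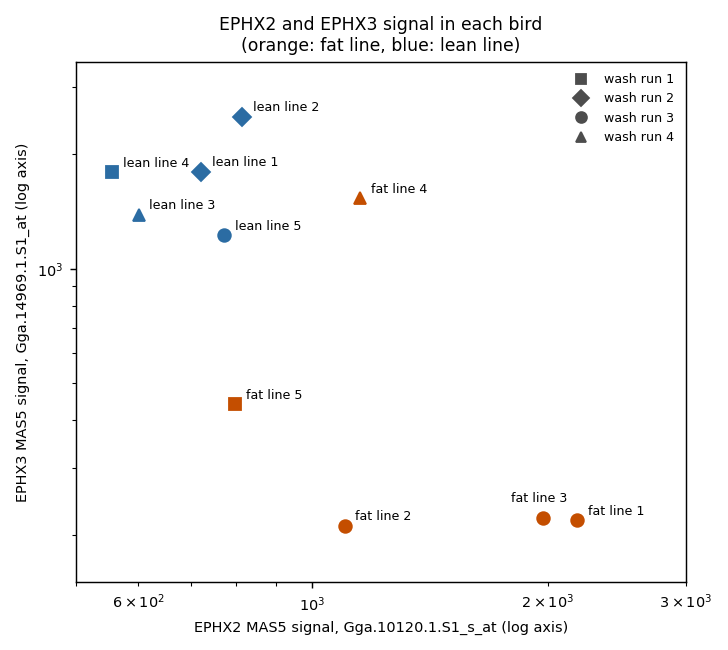
Signal of EPHX2 probe set 1 (horizontal, log axis) against that of EPHX3 probe set 1 (vertical, log axis) in each bird, fat line in orange, lean line in blue, marker shape for the wash run. Lean line birds lie at high EPHX3 and low EPHX2, fat line 1, 2 and 3 at low EPHX3, and fat line 4 combines an EPHX2 signal of 1150.7 with an EPHX3 signal of 1530.9.

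The groups of hybridization times, called wash runs here, and the scan days varied with the line. The differences were therefore also taken within each wash run that held both lines. For probe set 1 of EPHX2 the log2 difference was 0.52 in run 1 (1 bird of each line), 1.12 in run 3 (3 fat line birds and 1 lean line bird) and 0.94 in run 4 (1 of each). With the other EPHX2 probe sets it was also above 0 in the 3 runs, from 1.07 to 2.72. The family was chosen on this difference and each of the 3 runs held 1 lean line bird, so nothing is read from the shared sign. For probe set 1 of EPHX3 it was -2.02 in run 1, -2.50 in run 3 and 0.14 in run 4, where fat line 4 was set against lean line 3. All 4 EPHX3 probe sets were lower in the fat line in runs 1 and 3 and higher in run 4, by 0.14 to 1.17.

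The low EPHX3 of fat line 1, 2 and 3 coincided with run 3. Lean line 5, the other bird of that run, had 1227.4 with probe set 1, 5.66 times the geometric mean of those 3 birds. The part of the wash run in these signals was not tested beyond the values given here. Fitted with the wash run as a block, the log2 difference of that probe set was -1.61 and that of EPHX2 probe set 1 0.90. On the day that held 4 fat line and 2 lean line birds they were -1.88 and 1.17. All arrays of that day were read on 1 scanner and the other arrays on a second one, so the scanner also varied with the line. The 3' to 5' signal ratio of the beta-actin control probe sets, a sign of RNA length, was 1.545 to 2.661 in the fat line and 1.688 to 3.093 in the lean line. In the low birds fat line 1, 2 and 3 it was 1.776 to 2.046, between the values of lean line 5 (1.688) and lean line 4 (2.281). The part of RNA length in the EPHX3 signals was not tested.

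**Figure D4:**
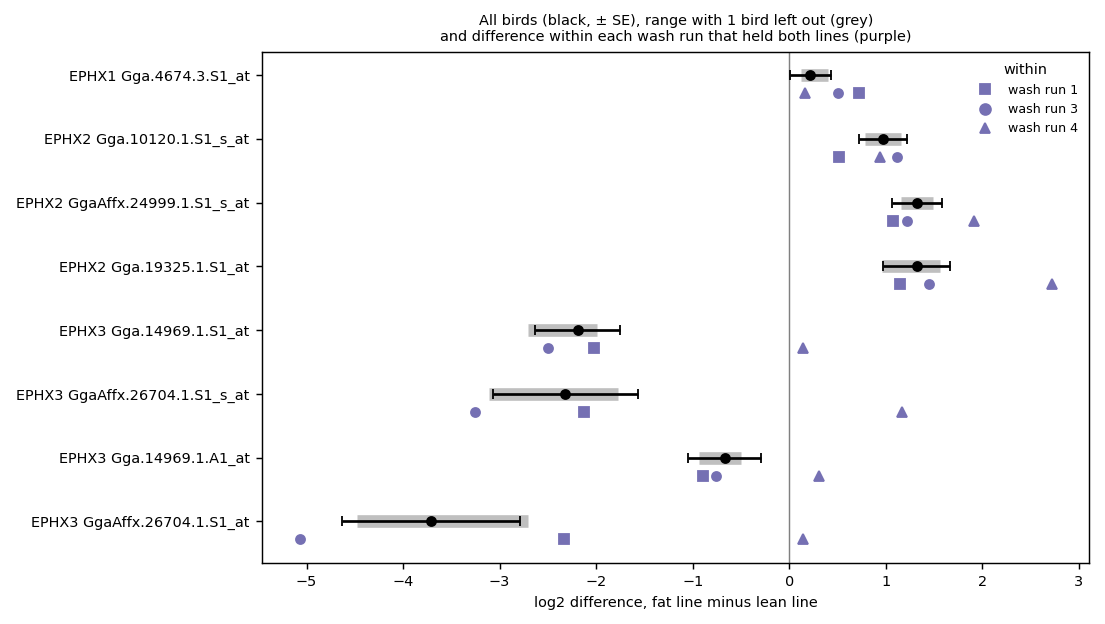
Log2 difference of the fat line minus the lean line for each of the 8 probe sets, with all birds (black, ± SE), as the range when 1 bird is left out (grey bar) and within each wash run that held both lines (purple, shape for the run). EPHX2 lies above 0 throughout, and EPHX3 lies below 0 except in run 4, where it is 0.14 to 1.17.

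In a bulk sample of fat, fewer cells of a type and less RNA per cell cannot be told apart, so lists of markers of other cell types were summed in each bird. In mammals EPHX1 and EPHX2 are abundant in liver. Of 10 liver markers, 10 had a lower mean log2 signal in the fat line. Their summed signal was 1239.7 to 2593.8 in the fat line and 1520.3 to 49872.8 in the lean line, with the highest sums in lean line 1 (49872.8) and lean line 5 (25855.0). The EPHX2 signals of lean line 1 and 5 were 721.8 and 771.7 with probe set 1, 522.6 and 684.2 with probe set 2, and 708.0 and 474.8 with probe set 3. Albumin (ALB) was 123.0 to 289.8 in the fat line and 83.8 to 26025.9 in the lean line.

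The summed skeletal muscle markers (7 of 7 lower in the fat line) were 745.0 to 33840.7 in the fat line and 1324.9 to 121431.5 in the lean line, and those of smooth muscle (3 of 4 lower) 2435.7 to 3695.0 against 3684.1 to 22638.8. Of 6 epithelial markers, 5 were lower, with sums of 1315.7 to 3284.8 and 1992.4 to 3990.3. Of 8 intestinal markers, 7 were lower, with sums of 1314.1 to 2070.2 and 1416.7 to 4039.8. Lean line 2, the bird with the highest EPHX3 signal with probe sets 1 and 4, had liver (1520.3), skeletal muscle (1324.9), smooth muscle (3684.1) and epithelial (2029.9) sums inside the range of the fat line, and an intestinal sum of 2199.8 just above it. Lean line 4 was the highest lean line bird with probe sets 2 and 3. Its liver (4376.0) and smooth muscle (22638.8) sums lay above the fat line. Its skeletal muscle (7528.3), epithelial (3217.0) and intestinal (1614.5) sums lay inside the fat line range. For skeletal muscle and epithelium this held only through fat line 2 (33840.7 and 3284.8). The skeletal muscle sums of the other fat line birds were 745.0 to 1185.7, below both lean line 2 and lean line 4. Their epithelial sums were 1315.7 to 2962.2. The adipocyte sum (2 of 7 markers lower) was 149984.3 to 178868.4 in the fat line and 147355.3 to 163524.6 in the lean line. At an unadjusted limma p under 0.05, 3 adipocyte markers were higher (PPARG, CIDEC and LPL). ADIPOQ was lower at that p, with a log2 difference of -0.58. Also lower at that p were 4 liver, 3 smooth muscle, 1 skeletal muscle, 1 intestinal and 1 epithelial marker, and 0 markers of these lists were higher. The smooth muscle markers DES and ACTG2 had log2 differences of -2.31 (SE 0.50) and -2.27 (SE 0.50). Those of the liver markers AHSG and ALB were -3.54 (SE 1.06) and -3.18 (SE 1.18). In fat line 4, whose EPHX3 was at the lean level, the sums for liver (2562.6), skeletal muscle (1115.1), smooth muscle (2617.8), epithelium (2962.2), mesothelium (1172.6) and adipocytes (155426.1) lay inside the range of the other fat line birds. Its intestinal sum (2070.2) was the highest and its endothelial sum (34249.6) the lowest of the fat line, its brain and nerve sum (881.7) was the highest and its macrophage sum (12207.5) the lowest of all 10 birds. The part of these cell types in the EPHX2 and EPHX3 signals was not tested.

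Macrophage markers (6 of 6 lower) summed to 12207.5 to 15457.1 in the fat line and 12323.8 to 30479.9 in the lean line, with lean line 3 highest. For the mesothelium (3 of 3 lower) the sums were 763.8 to 1414.4 and 882.1 to 1399.2, for brain and nerve (3 of 5 lower) 267.2 to 881.7 and 392.4 to 729.2, and for the endothelium (1 of 5 lower) 34249.6 to 51702.2 and 30603.5 to 51663.9. None of these markers was called by limma.

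The genes with the most similar signal over the 10 birds were looked up for probe set 1 of each member, among 15156 probe sets with a symbol and a mean log2 signal at or above the median. Each r below is the highest found in that search and has no p. It includes the difference between the lines, on which EPHX2 and EPHX3 were chosen. Nothing is therefore read from how the genes found differ between the lines. For EPHX3 the closest was GATA4, a zinc finger transcription factor, with r = 0.96 (Spearman rho 0.81) and 0.90 for the deviations from the line means. GATA4 had signals of 110.2 to 280.0 in the fat line, with fat line 4 the highest, and 246.2 to 358.4 in the lean line. RAD52, a protein of DNA repair (r = 0.93), and RHCE, a Rh blood group protein (r = 0.916), followed, each with fat line 4 as the highest bird of the fat line. In all, 7 genes reached r = 0.9 with EPHX3.

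For EPHX2 the closest genes were STX12, a syntaxin of endosomes (r = 0.95), AUP1, a protein of lipid droplets and the endoplasmic reticulum (r = 0.938), and CDC42BPA, a kinase that binds CDC42 (r = 0.935). The r of the deviations from the line means was 0.88, 0.93 and 0.84 in that order. CDC42BPA had 828.6 to 1938.7 in the fat line and 436.1 to 771.0 in the lean line. Of all probe sets, 0.705% were likewise higher in the fat line with no overlap. Altogether 19 genes reached r = 0.9 with EPHX2 and 0 with EPHX1, whose closest were MTTPL (r = 0.882), the lysosomal cholesterol transporter NPC1 (r = 0.866) and RCHY1 (r = 0.865). The counts are not compared, since EPHX1 was not chosen on its line difference.

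Genes next to the members in the RefSeq order were looked up after the signals of the members had been seen. Of the 8 coding genes nearest to EPHX3, 5 were measured. BTBD8 had 607.1 to 966.1 in the fat line and 620.0 to 868.9 in the lean line (log2 difference 0.07, SE 0.18), and BRDT, GLMN, RPAP2 and TGFBR3 had log2 differences of -0.33 to 0.35. None of the 5 had an unadjusted p under 0.05. Fat line 4 lay above fat line 1, 2 and 3 only for BTBD8, with 966.1 against at most 825.5. Near EPHX2, 5 genes were measured, of which SCARA5, a ferritin receptor, was lower (log2 difference -0.58, SE 0.26, limma adjusted p = 0.667) and the others lay between -0.39 and 0.57. One of these, C3H8ORF80 (-0.39, SE 0.27), split the fat line much as EPHX3 did. Its signal was at most 261.6 in fat line 1, 2 and 3, 505.1 in fat line 4 and 308.2 to 480.4 in the lean line. Near EPHX1, 7 were measured, between -0.33 and 0.31.

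Genes related to the members by pathway or by fold were counted in 6 lists of 75 genes, with 1 probe set per gene. The lists were not limited to genes that act on epoxides, and also hold alpha/beta hydrolase relatives, receptors and transcription factors. Of the 75 genes, 0 passed the test over all probe sets. At an unadjusted p under 0.05 there were 10 higher and 5 lower in the fat line, together 20.0% of the lists against 7.38% of all probe sets. The lists were chosen with earlier results of these data known. They also hold the brightest probe set of each gene, so nothing is read from these shares. The median log2 difference over the lists was -0.10 against -0.05 over all probe sets.

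Cytochromes P450 of families 1 to 4, which include the enzymes that form fatty acid epoxides, were taken with their partners POR and CYB5A. Of the 28 genes measured, 8 lay above and 20 below 0, while 44.3% of all probe sets lay above 0. The median log2 difference of the list was -0.38, and 0 genes were called. The median was -0.25 over all probe sets of these genes and -0.28 after quantile normalization. Every gene of the list with a mean signal under 100 lay below 0, such as CYP2AB2 (77.7) and CYP2AC7 (89.5). The median thus rests in part on dim signals. POR, the reductase that supplies electrons to microsomal P450s, had 6830.5 ± 1378.9 in the fat line against 5103.3 ± 1208.5 in the lean line (SD, n = 5 each), a log2 difference of 0.43 (SE 0.19, limma adjusted p = 0.655). CYP4V2, a fatty acid hydroxylase, had 572.4 ± 89.6 and 852.0 ± 196.5 (SD, n = 5 each), a log2 difference of -0.56 (SE 0.20). CYP2C23b was lower in mean, at 104.9 ± 31.1 against 221.6 ± 100.9 (SD, n = 5 each), and CYP2AB5 was dim in both lines (22.8 and 67.4). CYP2J19, of a family that makes arachidonic acid epoxides in mammals, had 413.5 ± 169.3 and 437.9 ± 88.2 (SD, n = 5 each). These genes did not pass, and the values are a description.

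Glutathione transferases, the other main route by which cells remove epoxides, were measured for 14 genes, 7 above and 7 below 0 with a median of -0.06. GSTT1L, of the theta class, had the smallest unadjusted p of the 6 lists, with 11739.7 ± 2665.5 in the fat line against 6381.3 ± 1682.4 in the lean line (SD, n = 5 each), a log2 difference of 0.89 (SE 0.20, limma adjusted p = 0.266). GSTK1, of the kappa class of mitochondria and peroxisomes, had a log2 difference of 0.55 (SE 0.16), GSTA3 -0.78 (SE 0.34) and GSTT1 0.41 (SE 0.20). The microsomal transferase MGST1 was among the brightest, at 19937.8 ± 3023.7 and 18166.2 ± 1867.6 (SD, n = 5 each).

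Among 15 relatives of the alpha/beta hydrolase fold, 6 lay above and 9 below 0, with a median of -0.03. SERHL, a serine hydrolase-like protein, had a log2 difference of 0.81 (SE 0.21, limma adjusted p = 0.323), ABHD3, a phospholipase, 0.90 (SE 0.29), ABHD12, a lysophospholipase, -0.39 (SE 0.15), and ABHD11 -0.81 (SE 0.56). Of the 9 phospholipase, lipoxygenase and leukotriene genes, PLA2G6 had a log2 difference of 0.60 (SE 0.23), and LTA4H, which hydrolyses the epoxide leukotriene A4, had 4461.6 ± 593.6 against 4290.5 ± 794.2 (SD, n = 5 each), a log2 difference of 0.07 (SE 0.15). ALOX5AP, the partner of 5-lipoxygenase, had -0.35 (SE 0.25), and the median of this list was 0.05.

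The receptor list held 8 measured genes, sensor receptors together with the transcription factors ARNT and NFE2L2. PPARG, the master regulator of fat cells, had 5148.6 ± 1105.6 in the fat line against 3389.5 ± 785.2 in the lean line (SD, n = 5 each). The log2 difference of PPARG was 0.61 (SE 0.19, limma adjusted p = 0.458). Its partners RXRA and RXRG had log2 differences of 0.96 (SE 0.34) and 0.90 (SE 0.42), and PPARA 0.17 (SE 0.24). The median of this list was 0.16. DHCR7, a subunit of the cholesterol epoxide hydrolase and the 1 gene measured of that list, had 0.12 (SE 0.26).

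**Figure D5:**
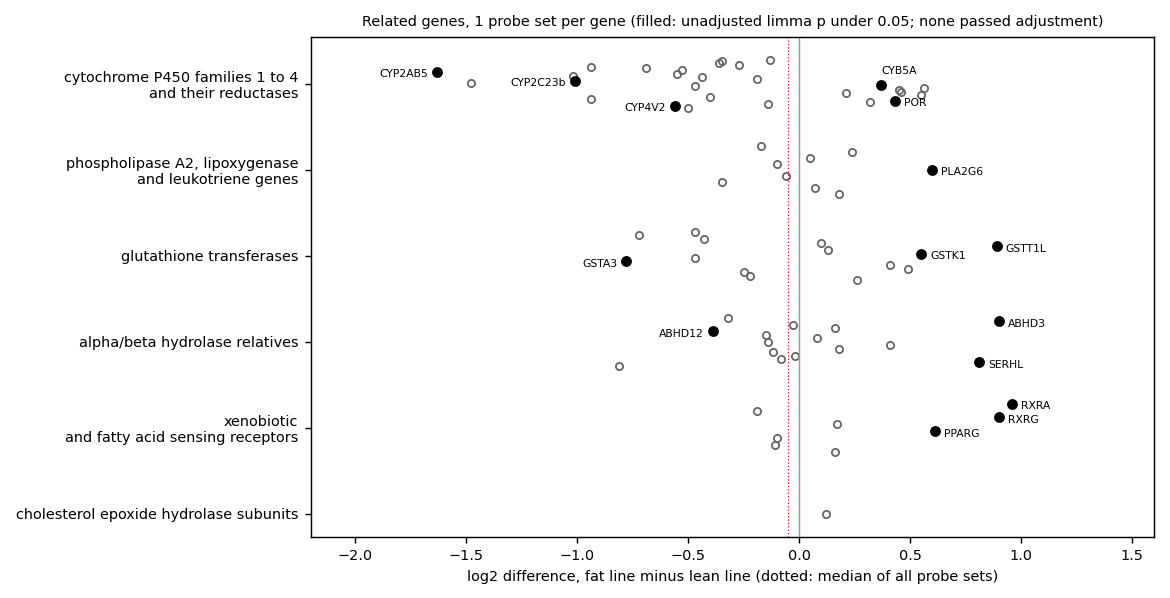
Log2 difference of the fat line minus the lean line (horizontal) for the 75 related genes in their 6 lists, 1 point per gene, filled and named where the unadjusted limma p was under 0.05 (10 above and 5 below 0), with a dotted line at the median of all probe sets (-0.05). No point passed the adjusted test, and the cytochromes P450 lie mostly below 0, including each one with a mean signal under 100.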

How the data were processed

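Abdominal fat of 10 birds was measured on Affymetrix Chicken Genome Arrays. The authors deposited signal intensity values on a linear scale, named as MAS5 in the labels, while the paper names Microarray Suite. Detection calls were not used here. Each array had been scaled to a trimmed mean near 500 (500.1 with 2% left out at each end). The 96 control probe sets were left out. Symbols came from the array's annotation (27168 probe sets with 1 symbol, 177 with several, 11094 with none).

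Scan days and hybridization times were read from the array logs, the other deposited files, which hold no measurement of RNA. The logs name no wash runs. A gap of over 1 hour between hybridization times started a new run.

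Log2 signals were compared with limma 3.58.1 in R 4.3.3 (lmFit, eBayes with an intensity trend) and tested on simulated data. Other values came from Python 3.11.15 (scipy 1.17.1, pandas 2.3.3, numpy 2.4.6). Arrays have no read depth, and their number limits the precision. Birds are labelled as biological replicates.

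The members and lists were chosen with earlier results of these data known. The genes named are all member probe sets, up to 4 genes of smallest p per list, the 3 genes most similar to each member, and a few chosen after their values were seen (EPHX1L, the genes next to the members, POR, CYP2J19 and MGST1). The methods' SAM was run on all 10 arrays, since the labels do not name the bird that was left out there. In the paper SAM at the same delta did call genes, probe set 4 of EPHX3 among them, on transcripts called present and without that bird. The count given here is therefore not a repeat of the paper's.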

Additional observations from a re-analysis of the deposited data

Results flagged for a closer look

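Fat line 4 stood apart from the other 4 birds of its line in 3 of the 4 EPHX3 probe sets, by the gap between its signal and the nearest bird against the range of the line (Dixon's critical value 0.71 for 5 birds). With probe set 1 it had 1530.9 against 211.2 to 441.5 in the others (gap 0.825 of the range), with probe set 2 1220.0 against 30.1 to 234.8 (0.828), and with probe set 4 358.7 against 2.6 to 102.9 (0.718). The probe sets measure the same RNA and are not independent. In all, 16 groups of 5 birds were looked at, and chance alone is expected to mark about 1 in 20 where values are normally distributed. These gaps were taken on linear signals, which are skewed. On log2 signals, tried after the data were seen, the 3 gaps were 0.628, 0.445 and 0.253 of the range, all under the critical value. On that scale 1 of the 16 groups passed it, EPHX1 in the fat line, where fat line 2 was lowest at 667.1 (gap 0.727). Fat line 4 also had the highest median signal of all arrays (276.2) and the fewest signals under 100 (26.5%), and the part of this in its EPHX3 signal was not tested. After quantile normalization the log2 difference of probe set 1 was -2.05.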

How the results depend on the processing

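The differences of the 8 member probe sets kept their sign in all 18 alternatives run for each. EPHX2 and EPHX3 were chosen on this contrast and the alternatives reuse the same birds, so nothing is read from the shared sign. Run 4 alone, where the 4 EPHX3 probe sets were higher in the fat line, is not among these alternatives. Leaving out 1 bird at a time gave 0.12 to 0.40 for EPHX1, 0.79 to 1.16 for EPHX2 (probe set 1) and -2.71 to -1.99 for EPHX3 (probe set 1), with the other alternatives between 0.21 and 0.47, 0.90 and 1.17, and -2.19 and -1.61. The 1 member value that moved by more than the spread between birds was probe set 3 of EPHX2 on the largest scan day alone (2.11). The median of the receptor list was 0.30 after quantile normalization and 0.16 before. The cholesterol epoxide hydrolase list (DHCR7) had 0.12 with 1 probe set and a median of -0.57 over its 2 probe sets. The cause of these shifts was not tested. Over all probe sets limma called 0 under each other setting and 0 to 2 with 1 bird left out: 2 without fat line 4, 2 when lean line 5 was omitted and 1 when fat line 2 was. With the replicate number as a block (replicate block) limma called 0, with 2591 at an unadjusted p under 0.05. Same-numbered birds did not deviate together (r -0.136 to 0.063), so the numbers do not pair them. Without detection calls, signals under about 100 are not evidence of a transcript.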
